A study of Mus musculus with 10 samples.

Results

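The genes described here make or assemble the machinery that produces ribosomes. They are 44 of the 21437 genes with a value in this series, taken by name: the numbered Polr1, Utp, Nop, Nol, Rrp and Noc genes, Imp3 and Imp4, and Fbl, Ncl and Dkc1. By role they comprised 5 subunits of RNA polymerase I (Pol I), 3 box C/D and 2 box H/ACA small nucleolar ribonucleoprotein (snoRNP) proteins, nucleolin, 20 factors of the small ribosomal subunit and 11 factors of the large subunit. The remaining 2, Nol3 and Nol4l, have the form of the name only. Genes of these families listed under other symbols, such as Twistnb and Cirh1a (known also as Polr1f and Utp4), stand among the other genes of the pathway below. Utp20 and Rrp12 had no value under those names in this series and so were not analysed.

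Pol I transcribes the ribosomal DNA in the nucleolus into a long precursor rRNA. Box C/D snoRNPs then guide its 2′-O-methylation and box H/ACA snoRNPs its pseudouridylation, while the small-subunit processome and the large-subunit factors fold, cut and trim it as ribosomal proteins join. The fully grown mouse oocyte stops rRNA synthesis and stores ribosomes, and nucleoli of the early embryo start as precursor bodies that resume rRNA synthesis around the time the embryonic genome is activated.

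The study compared metaphase II (MII) oocytes, middle 2-cell and early 4-cell control embryos, and 2-cell and 4-cell embryos depleted of Argonaute 2 (Ago2 kd), with 2 libraries in each of the 5 groups, 10 in all. Argonaute 2 is the slicing Argonaute that small RNAs guide to target mRNAs, and the study asked how maternal mRNA depends on it. All libraries were made from total RNA of oocytes or blastomeres after removal of the zona pellucida, and are labelled strain ICR with wild type or Ago2-kd as genotype. The embryos came from superovulated 7-week-old F1 females mated with F1 males, while the Methods name ICR mice for the oocytes. Knockdown was done in zygotes by injecting siRNA against Ago2 together with antibodies against the protein, so it is neither an inherited allele nor limited to the RNA. How many embryos went into a library, and whether the 2 libraries of a group came from separate collections, is not given in the sources used here, so the p-values measure the spread between these libraries, which may be technical. The study reports that it checked the knockdown by q-PCR, by immunofluorescence and in its RNA-seq data, and its Methods name a scrambled siRNA as negative control. Ago2 mRNA was not analysed here, so the labels are taken as given.

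Values are FPKM (fragments scaled to exon length and to the mapped fragments of the library), summing to 178681 to 458874 over a library. The depth is unknown and an exact 0 may be a failed estimate: Gapdh, which every cell uses, was at 0.167 FPKM or less throughout, and Fbl at 0.795 or less, so such genes are called listed at 0 and no fold is formed against them. Oocyte markers (8 of 8 measured) summed to 7.29e+03 to 8.68e+03 FPKM in MII oocytes and to 6.14 to 11.5 in 4-cell control embryos. The sum of the 2-cell embryo markers (6 of 9 measured) was highest in 2-cell control libraries, at 646 to 741. Zfp352, Tcstv3 and Usp17la followed this order, with both 2-cell control libraries above all oocyte and 4-cell libraries. Tcstv1 was higher in MII oocytes (71.58 and 81.48 FPKM, against 56.59 and 62.15 in 2-cell controls). Tdpoz4 was higher in 4-cell controls (65.01 and 144.7, against 48.35 and 62.28), and Zscan4d was above 0 in 1 2-cell control library alone. The 4 of 14 cumulus cell markers measured summed to 1.78 or less in every library. Because an embryo library mixes the RNA of more than 1 cell, fewer cells with an mRNA and less of it per cell cannot be told apart.

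Of the 44 genes, 38 had at least 1 FPKM in at least 2 libraries and were tested. The other 6 (Polr1b, Fbl, Rrp7a, Utp18, Noc2l and Nol3) did not pass that filter. Utp15, Noc3l, Nol12 and Nol9 passed through 4-cell libraries alone, as did 14.2% of the 8726 genes tested, and Nol10 through the oocyte libraries alone, so these genes had to differ between stages. At or above 1 FPKM in all 10 libraries were 11 genes: Polr1d, Polr1e, Dkc1, Ncl, Imp4, Noc4l, Utp11l, Utp14a, Utp3, Nol8 and Rrp15. Replicates correlated over the 38 genes with Pearson r of 0.905 in MII oocytes, 0.676 in 2-cell control, 0.703 in 2-cell Ago2 kd, 0.860 in 4-cell control and 0.725 in 4-cell Ago2 kd embryos. A gene above 10 FPKM in 1 library and below 0.1 in its replicate was seen for Nop16 in 2-cell control, Rrp1 in 2-cell Ago2 kd, and Noc3l and Nop16 in 4-cell Ago2 kd embryos. That kind of disagreement was commoner among all genes in 4-cell Ago2 kd embryos (14.3%) than in the other groups (6.32% to 8.77%).

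These genes took their largest share of the FPKM sum in 4-cell libraries. Such a share is relative and does not give the amount of mRNA per embryo. The 44 genes together took 0.137% and 0.117% of the FPKM sum in MII oocytes, 0.0955% and 0.192% in 2-cell control, and 0.613% and 0.8% in 4-cell control libraries. In Ago2 kd embryos the shares were 0.119% and 0.12% at the 2-cell and 0.67% and 0.509% at the 4-cell stage. At the 2-cell stage these lay within the control range, and at the 4-cell stage 1 library lay within it and 1 below. Along the control series, 22 of 38 genes (57.9%) had both 4-cell libraries above every oocyte and 2-cell library, against 29.7% of all genes tested. Among the 22 are Utp15 and Nol9, which passed the filter through 4-cell libraries alone. Only 3, Dkc1, Nol10 and Nol8, were highest in both oocyte libraries (7.89%, against 26.1% of genes tested), and 1, Polr1a, in both 2-cell libraries.

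**Figure D1:**
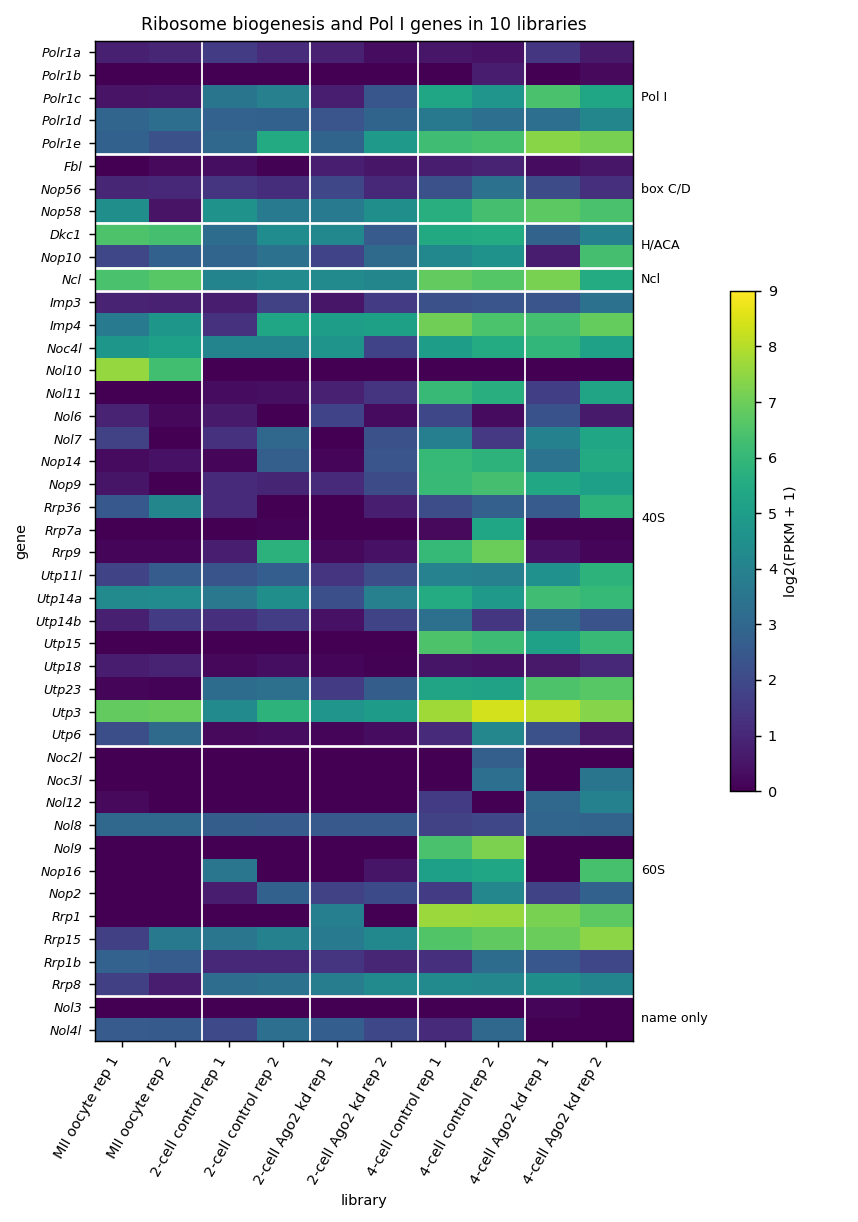
Heat map of the level of each of the 44 genes (rows, grouped by role: Pol I subunits, box C/D, box H/ACA, nucleolin, small-subunit or 40S factors, large-subunit or 60S factors, and genes matched by name only) in each of the 10 libraries (columns, white lines between groups), coloured by log2(FPKM + 1) from 0 to 9. The 4-cell columns are the brightest, Nol10 is bright in the oocyte columns alone and Nol9 in the 4-cell control columns alone.

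As stored oocyte mRNA, 18 of the 44 genes (40.9%) averaged above 2 FPKM in MII oocytes, against 22.5% of all genes. All genes here are the 21437 with a value, of which 8726 passed the filter for testing, while 38 of the 44 did. These shares are thus not of like sets and were not read as an excess. By mean FPKM Nol10 stood highest in oocytes, followed by Utp3, Ncl and Dkc1, although its replicates were further apart than theirs. Of the 18, only Nol10 fell by at least 1 log2 unit by the 2-cell stage and then stayed within 1 unit. Dkc1, Ncl, Rrp36, Utp3, Utp6 and Rrp1b fell by that much and regained at least 1 unit by the 4-cell stage, which makes 13.6% of the 44 genes, against 3.94% of all genes. The same limit holds for this pair of shares.

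From MII oocyte to 2-cell control embryos, 3 of the 38 genes rose (7.89%) and 3 fell (7.89%) at a limma adjusted p below 0.05. Among all genes tested 6.54% rose and 14.2% fell, so the share that rose lay near the background. Those that fell were Nol10, Dkc1 and Ncl, and those that rose were Utp23, Polr1c and Rrp8. The median log2 difference was 0.17, beside -0.06 over all genes.

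Nol10, a small-subunit processome factor, was at 191.7 and 76.66 FPKM in MII oocytes and listed at 0 in the other 8 libraries, Ago2 kd embryos included (limma adjusted p = 0.000184). With all embryo libraries at 0, the knockdown comparisons say nothing of its loss. Nol10 reached 1 FPKM in the oocyte libraries alone, so it had to differ and its call is a description. Dkc1, the pseudouridine synthase of box H/ACA snoRNPs, was at 89.22 and 80.27 FPKM in oocytes, 8.043 and 19.99 in 2-cell control and 43.26 and 45.55 in 4-cell control embryos. It fell to the 2-cell stage by 2.64 on the log2 scale (SE 0.673, limma adjusted p = 0.0335), and its level at the 4-cell stage lay between the other stages with no overlap. Ncl, the abundant RNA-binding protein of the nucleolus, was at 85.2 and 101 FPKM in oocytes, 15.73 and 19.19 in 2-cell control and 113.5 and 97.56 in 4-cell control embryos. It fell by 2.35 on the log2 scale (SE 0.524, limma adjusted p = 0.0205), and it rose again by 2.53 to the 4-cell stage (SE 0.524, limma adjusted p = 0.0093), where its range overlapped that of oocytes. Scaling each library to the same sum (TPM) moved the median over all genes in this step from -0.06 to 0.38, and that over the 38 genes from 0.17 to 1.20. The share of called genes that rose went from 31.5% to 64.1% over all genes with that scaling. With it Dkc1 and Ncl were still lower in 2-cell embryos, at -1.54 and -1.22 log2 units, without passing (limma adjusted p of 0.199 and 0.26), and neither passed when any 1 of the 4 libraries of this step was left out.

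The risers of this step had low values in oocytes. Utp23, a small-subunit processome factor of the PIN-domain type, was at 0.1144 and 0.07545 FPKM in oocytes, 8.102 and 8.965 in 2-cell control and 37.06 and 35 in 4-cell control embryos. It rose in both steps, by 3.12 on the log2 scale (SE 0.422, limma adjusted p = 0.00302) and then by 1.96 (SE 0.422, limma adjusted p = 0.0108), with no overlap between stages. Rrp8, a methyltransferase of the large-subunit rRNA, was at 2.27 and 0.641 FPKM in oocytes, 8.251 and 9.197 in 2-cell control and 18.94 and 16.74 in 4-cell control embryos. Its first step passed (2.07, SE 0.447, limma adjusted p = 0.0182) and the next, 0.95, did not (limma adjusted p = 0.14). Utp23, like Nol10, passed this step without any 1 library, whereas Rrp8 was lost without MII oocyte replicate 2 or either 2-cell control library (limma adjusted p of 0.0759, 0.0605 and 0.0836).

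Among the Pol I subunits taken by name, only Polr1c, which Pol I shares with Pol III, passed a test along the control series. It was at 0.389 and 0.4427 FPKM in oocytes, 10.26 and 14.21 in 2-cell control and 37.72 and 25.11 in 4-cell control embryos, a first step of 3.21 on the log2 scale (SE 0.646, limma adjusted p = 0.014) and a second of 1.28 (SE 0.646, limma adjusted p = 0.167). Without MII oocyte replicate 1 or 2, or 2-cell control replicate 2, the first step did not pass (limma adjusted p of 0.0777, 0.0728 and 0.0782). The other shared subunit, Polr1d, was at 6.743 and 8.45, then 6.092 and 5.971, then 11.56 and 8.876 FPKM, and neither step passed. Polr1e, the subunit known as PAF53, was at 5.941 and 3.653, then 7.301 and 44.2, then 75.29 and 83.28 FPKM. Its 4-cell libraries lay above all others, but the 2-cell replicates were far apart and the step did not pass (2.05, SE 0.908, limma adjusted p = 0.122). The largest subunit, Polr1a, which with Polr1b forms the active site, was at 0.7405 and 0.9606, then 1.924 and 1.212, then 0.4552 and 0.3578 FPKM. Polr1b was listed at 0 in the oocyte and 2-cell libraries and in 1 library of each 4-cell group, with 0.6209 FPKM in 1 control and 0.1626 in 1 Ago2 kd library. The values for the catalytic core thus stayed near or below 2 FPKM at every stage while those of Polr1c and Polr1e went well above that. Low values may be failed estimates, as for Gapdh above, so this contrast was not read as a difference in transcription.

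Of the box C/D proteins, Nop58 was at 21.16 and 0.3772 FPKM in oocytes, 23.61 and 11.94 in 2-cell control and 50.33 and 80.69 in 4-cell control embryos. Its partner in the same particle, Nop56, was at 0.9514 and 1.015, then 1.564 and 1.286, then 3.699 and 9.18 FPKM. Both were highest in the 4-cell libraries without passing (limma adjusted p of 0.258 and 0.0654 for the step from the 2-cell stage). Fbl, the methyltransferase of the particle, was at 0.01416 and 0.1593, then 0.2479 and 0.02635, then 0.6261 and 0.7952 FPKM, and at 0.6894 and 0.4454 in 2-cell and 0.2182 and 0.4644 in 4-cell Ago2 kd embryos, below 1 FPKM in every library. Nop10, which binds Dkc1 in the box H/ACA particle, was at 2.807 and 5.86, then 6.619 and 9.39, then 17.37 and 23.27 FPKM, and its steps did not pass.

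**Figure D2:**
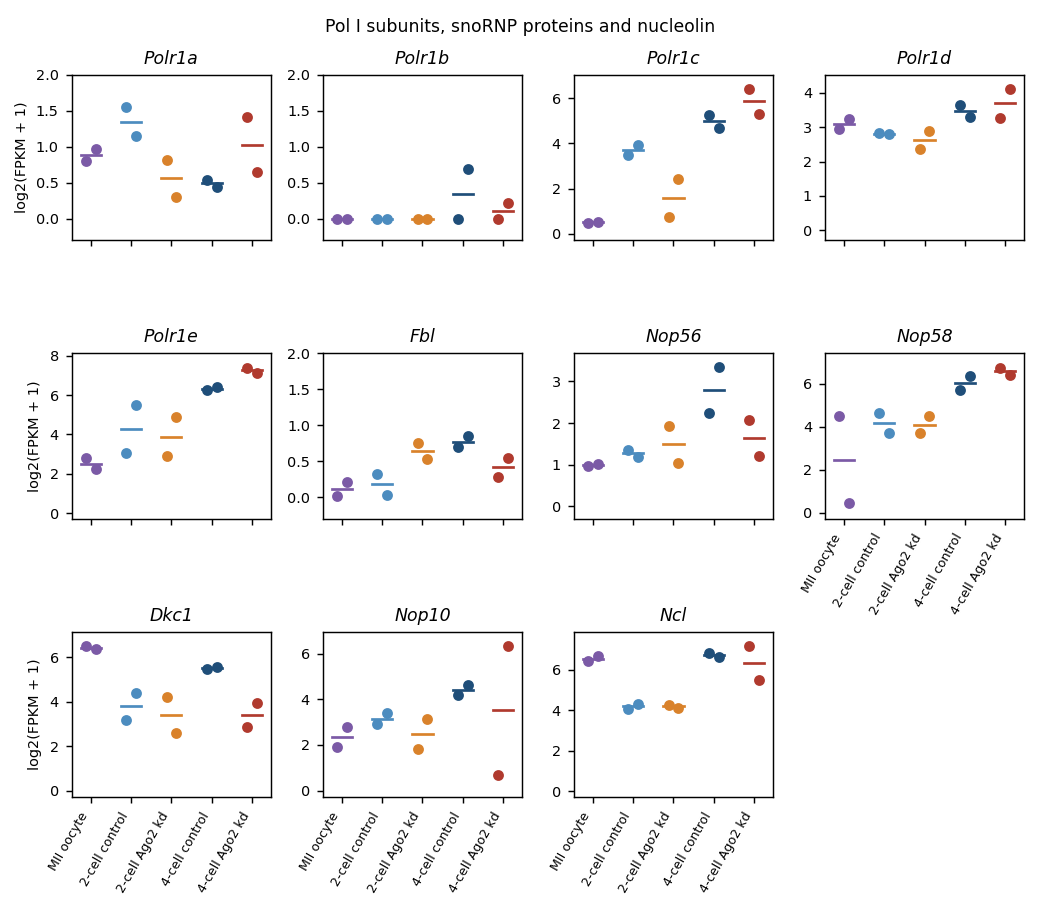
Level of the 5 Pol I subunits, 5 snoRNP proteins and nucleolin, as log2(FPKM + 1), in the 5 groups; each point is a library and the bar is the mean of the 2 libraries. Polr1c, Polr1e and Nop58 are highest at the 4-cell stage, Dkc1 and Ncl dip at the 2-cell stage, and Polr1a, Polr1b and Fbl stay below 2 on this scale.

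From the 2-cell to the 4-cell control stage, 10 of the 38 genes rose (26.3%) and 0 fell, beside 21.1% and 17.5% of all genes tested. Of these 10, 2 passed the filter through 4-cell libraries alone and had to be higher there. Among all genes tested, 613 of the 1841 that rose had passed in that way. At an unadjusted p below 0.05 in limma, 14 of the 38 were higher and 2, Polr1a and Nol8, lower, beside 26% and 20.9% of all genes. Both 4-cell libraries lay above both 2-cell libraries for 28 of 38 genes (73.7%), against 38.4% of all genes, and below them for 2 (5.26%, against 30.2%). The median difference was 1.58 log2 units, beside 0.24 over all genes. By role, 6 of 18 small-subunit factors rose (Nol11, Nop14, Nop9, Utp15, Utp23 and Utp3), as did 3 of 10 large-subunit factors (Nol9, Rrp1 and Rrp15), nucleolin, and 0 of the 4 Pol I subunits and 4 snoRNP proteins tested. These are the genes taken by name, and those of the same roles under other symbols are counted below.

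Most of the largest steps began from a value of 0. Rrp1, a large-subunit factor, was listed at 0 in the 4 oocyte and 2-cell control libraries and was at 201.2 and 195.6 FPKM in 4-cell control embryos (limma adjusted p = 0.00218). Nol9, the polynucleotide 5′-kinase that acts in the processing of the internal spacer of the rRNA precursor, was listed at 0 in the same 4 libraries and was at 83.63 and 149 FPKM at the 4-cell stage (limma adjusted p = 5.56e-05). Utp15, a subunit of the processome that also acts on rDNA transcription, was likewise listed at 0 before and reached 87.58 and 70.18 FPKM (limma adjusted p = 0.000106). These 3 genes had no overlap between the 2-cell and 4-cell control libraries. Nol9 and Utp15 reached 1 FPKM in 4-cell libraries alone, so they had to be higher there and their calls are a description.

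From low but measured levels, Nop9, a Pumilio-like RNA-binding protein, went from 1.105 and 0.9253 to 68.1 and 80.87 FPKM, a step of 5.22 (SE 0.444, limma adjusted p = 0.000265). Nol11, another processome subunit, went from 0.2273 and 0.301 to 66.73 and 50.09 FPKM (5.54, SE 1.03, limma adjusted p = 0.0062). Nop14 went from 0.1191 and 5.546 to 63.7 and 54.87 FPKM, with 2-cell replicates far apart (4.47, SE 1.12, limma adjusted p = 0.0193). Utp3, the Sas10-type processome factor, had the highest mean FPKM of the set. It stood at 114.3 and 118.3 FPKM in oocytes, 18.49 and 56.12 in 2-cell control and 209.8 and 335.9 in 4-cell control embryos, and rose from the 2-cell stage by 2.998 on the log2 scale (SE 0.544, limma adjusted p = 0.00561). Rrp15 went from 10.69 and 14.51 to 92.91 and 110.9 FPKM (2.93, SE 0.63, limma adjusted p = 0.0108). Nol8, a nucleolar protein tied to the large subunit, went the other way without passing, from 7.133 and 7.263 in oocytes through 5.291 and 5.05 to 2.417 and 2.817 FPKM (limma adjusted p = 0.101 for the second step). Left out, 2-cell control replicate 1, whose median over the 38 genes was 1.328 on the log2 scale beside 2.704 in replicate 2, took the number that rose from 10 to 6, and Nop14, Ncl, Rrp15 and Utp23 no longer passed.

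**Figure D3:**
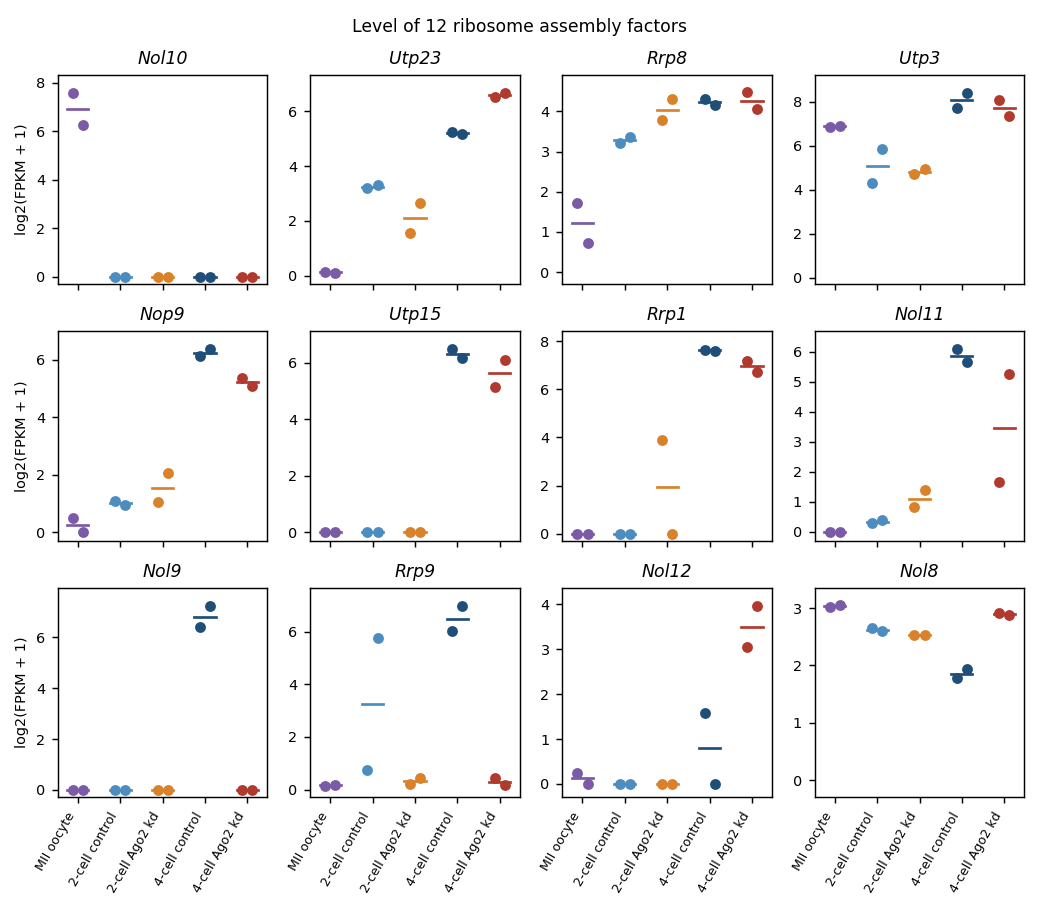
Level of 12 ribosome assembly factors, as log2(FPKM + 1), in the 5 groups; each point is a library and the bar is the mean of the 2 libraries. Nol10 has a value above 0 in the oocyte libraries alone, Utp15, Rrp1 and Nol9 are listed at 0 in oocyte and 2-cell control libraries and high in 4-cell control ones, Rrp1 has 13.93 FPKM in 1 of the 2-cell Ago2 kd libraries, and Nol9 and Rrp9 are high in 4-cell control but not in 4-cell Ago2 kd libraries.

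For some of these genes the bases before the start site are shown, from the RefSeq promoter sequences on GRCm38.p6. Whether these sequences relate to the changes in level was not tested. Nol9, Utp15, Rrp1 and Utp3 are shown as genes that rose at the 4-cell stage and Nol10 as the gene listed above 0 in the oocyte libraries alone. The runs cover the 250 bases before the start at chr4:152039071-152039320 (+ strand) for Nol9, chr13:98262993-98263242 (- strand) for Utp15, chr10:78413044-78413293 (- strand) for Rrp1, chr5:88554212-88554461 (+ strand) for Utp3 and chr12:17348243-17348492 (+ strand) for Nol10. Capitals mark matches, on either strand, to the ETS core CCGGAA, the GC box GGGCGG and the CCAAT box CCAAT; the E-box CACGTG, the TATA box TATAAA and the NRF1 core GCGCATGC were searched too and have no match in these runs.
Nol9: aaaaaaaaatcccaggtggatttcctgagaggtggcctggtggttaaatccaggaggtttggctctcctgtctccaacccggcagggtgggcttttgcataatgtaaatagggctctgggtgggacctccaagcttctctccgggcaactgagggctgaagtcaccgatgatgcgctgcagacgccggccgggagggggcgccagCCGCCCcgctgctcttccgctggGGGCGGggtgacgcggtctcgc
Utp15: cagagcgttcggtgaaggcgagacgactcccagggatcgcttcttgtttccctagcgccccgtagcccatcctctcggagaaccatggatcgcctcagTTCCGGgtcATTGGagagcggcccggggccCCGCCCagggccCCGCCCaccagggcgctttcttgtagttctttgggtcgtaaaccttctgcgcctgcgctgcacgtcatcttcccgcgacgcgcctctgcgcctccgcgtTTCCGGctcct
Rrp1: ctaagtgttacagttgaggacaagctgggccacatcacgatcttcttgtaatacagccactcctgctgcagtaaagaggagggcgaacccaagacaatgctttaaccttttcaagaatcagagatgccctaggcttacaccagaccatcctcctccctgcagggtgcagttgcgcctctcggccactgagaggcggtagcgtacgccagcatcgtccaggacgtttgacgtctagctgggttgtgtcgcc
Utp3: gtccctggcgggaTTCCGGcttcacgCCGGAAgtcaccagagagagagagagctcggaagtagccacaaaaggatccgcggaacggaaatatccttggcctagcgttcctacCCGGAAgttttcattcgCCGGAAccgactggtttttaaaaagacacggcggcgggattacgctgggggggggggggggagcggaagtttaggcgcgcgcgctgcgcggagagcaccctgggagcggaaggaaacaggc
Nol10: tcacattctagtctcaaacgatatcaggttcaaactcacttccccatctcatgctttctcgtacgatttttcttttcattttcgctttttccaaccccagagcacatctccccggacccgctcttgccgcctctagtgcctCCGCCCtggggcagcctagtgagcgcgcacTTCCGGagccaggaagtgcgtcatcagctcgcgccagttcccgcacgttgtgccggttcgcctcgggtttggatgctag
Utp3 held 4 ETS cores, Utp15 had 2 ETS cores, 2 GC boxes and 1 CCAAT box, Nol9 had 2 GC boxes, Nol10 had 1 ETS core and 1 GC box, and Rrp1 had no match.

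A promoter sequence was found for 38 of the 44 genes (not for Fbl, Nol6, Utp11l, Utp23, Utp6 and Nol3), in windows from 250 bases before to 50 after the start. An ETS core stood in 18 of these 38 windows (47.4%), against 33.1% of the 5419 windows of tested genes and 17.8% of all 20595. The GC box was in 71.1% (63.6% of tested genes, 42.7% of all), the CCAAT box in 34.2% (40.7% and 38.2%), the E-box in 15.8% (10.6% and 7.66%) and the TATA box in 10.5% (7.14% and 13.2%). The NRF1 core was in 0 of the 38, against 6.27% of tested genes and 3.34% of all. Matches to different motifs overlapped in 0 of the 38 windows. Of the 9 genes with a window that rose at the 4-cell stage, 4 held an ETS core and 7 a GC box. Median GC content was 57.8% in the 38 windows, 60.7% in those of tested genes and 55% in all.

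In the 2-cell stage comparison, Ago2 kd embryos differed from controls for 0 of the 38 genes at a limma adjusted p below 0.05, as did 0.55% of all genes tested. At an unadjusted p below 0.05 there were 2 genes (5.26%, against 5.96% of all genes), Polr1c and Utp23. Both Ago2 kd libraries lay above both controls for 2 genes (5.26%), Nol11 and Rrp8, where 14.4% of all genes did so. They lay below for 6 (15.8%), Polr1a, Polr1c, Rrp9, Utp11l, Utp23 and Nol8, where 14.7% of all genes did. The median difference was -0.12 log2 units beside 0.00 over all genes.

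Polr1c was at 10.26 and 14.21 FPKM in 2-cell control and 0.6868 and 4.333 in Ago2 kd embryos, without overlap (log2 difference -2.13, SE 0.646, limma adjusted p = 0.479). Utp23 was at 8.102 and 8.965 FPKM against 1.965 and 5.222 (-1.15, SE 0.422, limma adjusted p = 0.693). Both are among the genes that rose between oocyte and 2-cell control embryos, and the 2 comparisons use the same 2-cell control libraries. Rrp8 was at 8.251 and 9.197 FPKM in controls and 12.72 and 18.64 in Ago2 kd embryos (0.76, SE 0.447, limma adjusted p at its upper limit of 1). The maternal mRNAs Dkc1 (17.27 and 5.056 FPKM in Ago2 kd), Ncl (18.54 and 16.34) and Utp3 (24.81 and 29.57) overlapped the control libraries, as did Polr1d (4.123 and 6.454), Polr1e (6.386 and 28.42), Nop56 (2.802 and 1.074), Nop58 (12.05 and 21.12) and Nop10 (2.518 and 7.681). Polr1a was at 0.7599 and 0.2386 FPKM, below both controls. The sum of the 2-cell embryo markers was 351 to 510 FPKM in these libraries, below the 646 to 741 of controls, and its part in the differences was not tested. Without 2-cell control replicate 1, 1 gene was lower (Rrp9, limma adjusted p = 0.0199), and without 2-cell Ago2 kd replicate 2, 1 was higher (Rrp1, limma adjusted p = 0.0207). For Rrp9 the control libraries were at 0.695 and 53.64 FPKM, and for Rrp1 the Ago2 kd libraries at 13.93 and 0.

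At the 4-cell stage, 1 of the 38 genes was higher (2.63%) and 1 lower (2.63%) in Ago2 kd embryos at a limma adjusted p below 0.05. Over all genes these shares were 1.23% and 2.77%, close to those of the set. Unadjusted, 7 genes (18.4%) had p below 0.05, against 15.4% of all genes. Both Ago2 kd libraries lay above both controls for 11 genes (28.9%, against 20.1%) and below them for 10 (26.3%, against 16.9%), and the median difference was 0.01 log2 units beside 0.00 over all genes. The median thus lay at that of all genes, with single members far to either side. The Ago2 kd replicates disagreed, however. The median level of the 38 genes was 3.004 in replicate 1 and 5.127 in replicate 2 on the log2 scale, below and above both controls (4.675 and 4.654). A median difference near 0 therefore does not show that each Ago2 kd library was like the controls.

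Nol9 was the gene that was lower: 83.63 and 149 FPKM in 4-cell control embryos and listed at 0 in both Ago2 kd libraries (limma adjusted p = 0.00022). The gene lies at chr4:152039321-152061494 on the + strand with 5 annotated transcripts and overlaps no other gene of the types considered. Its Ago2 kd values equal those of all oocyte and 2-cell libraries, and a level like that of the 4-cell controls was not detected in Ago2 kd embryos. It reached 1 FPKM in the 2 4-cell control libraries alone, so it entered the test through the group where it is high and had to differ, and its call is a description. Of the 8726 genes tested, 145 (1.66%) passed the filter in that way, and they make up 102 of the 242 genes called lower. The comparison with the 4-cell controls and the control step share the 4-cell libraries. With the 4-cell libraries fitted on their own, the limma adjusted p was 0.157. In that fit 0 of all 8726 genes passed, and 0.157 was the lowest limma adjusted p.

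Nol12, an RNA-binding protein of the nucleolus, was the gene that was higher, at 2.014 and 0 FPKM in 4-cell control and 7.227 and 14.69 in Ago2 kd embryos. The log2 difference was 2.71 (SE 0.549, limma adjusted p = 0.0468), without overlap, from levels that are low and with a control library at 0. This call was lost under most alternatives and without any 1 library other than 4-cell control replicate 1, with limma adjusted p of 0.018 to 0.506 over settings that kept all libraries.

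The other 5 genes with an unadjusted p below 0.05 did not pass. Rrp9, which binds the U3 snoRNA, was at 64.14 and 124.6 FPKM in 4-cell control and 0.3543 and 0.1179 in Ago2 kd embryos (-6.20, SE 1.41, limma adjusted p = 0.0684). The 2-cell controls, which enter the shared estimate of the spread, were at 0.695 and 53.64 FPKM, and without the former or the latter library the limma adjusted p was 0.00254 or 0.00217. Dkc1 was at 43.26 and 45.55 FPKM against 6.315 and 14.36 (-2.10, SE 0.673, limma adjusted p = 0.182). Utp23 was at 37.06 and 35 FPKM against 89.44 and 100.6 (1.37, SE 0.422, limma adjusted p = 0.167). Nol8 was at 2.417 and 2.817 FPKM against 6.568 and 6.355 (1.05, SE 0.32, limma adjusted p = 0.165). Nol4l was at 1.142 and 7.259 FPKM against 0 and 0 (limma adjusted p = 0.226). None of the 5 overlapped between groups, and the Nol8 level in Ago2 kd embryos was close to the oocyte level of 7.133 and 7.263 FPKM.

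Among the Pol I subunits taken by name, in 4-cell Ago2 kd embryos Polr1c was at 84.36 and 38.98 FPKM and Polr1e at 168.4 and 140.5, both above both controls. Polr1d was at 8.682 and 16.45 and Polr1a at 1.651 and 0.5716. For all 4 subunits tested the difference was positive, from 0.22 to 0.95 log2 units, and none passed (limma adjusted p of 0.557 to 0.963). Of the snoRNP proteins, Nop58 was at 106.3 and 83.69 FPKM, above both controls, Nop56 at 3.244 and 1.326, below both, and Nop10 at 0.6206 and 79.45, on either side of them. Ncl was at 144.2 and 45.09 FPKM, also on either side.

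Of the assembly factors that had risen in controls, Utp15 (34.47 and 68.03 FPKM), Rrp1 (144.9 and 104.7), Nop9 (39.68 and 33.04), Nop14 (9.825 and 44.51) and Nol11 (2.184 and 37.17) were below both controls in 4-cell Ago2 kd embryos. Utp23 and Rrp15 (122.2 and 170.5 FPKM) were above both, and Utp3 (267.6 and 163.7) overlapped them. None of these differences passed, and apart from Nol9 each of these genes was above its 2-cell control values in both 4-cell Ago2 kd libraries. For Nol11 and Nop14 the low value came from 4-cell Ago2 kd replicate 1. Rrp8, at 21.15 and 15.57 FPKM, overlapped the controls.

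**Figure D4:**
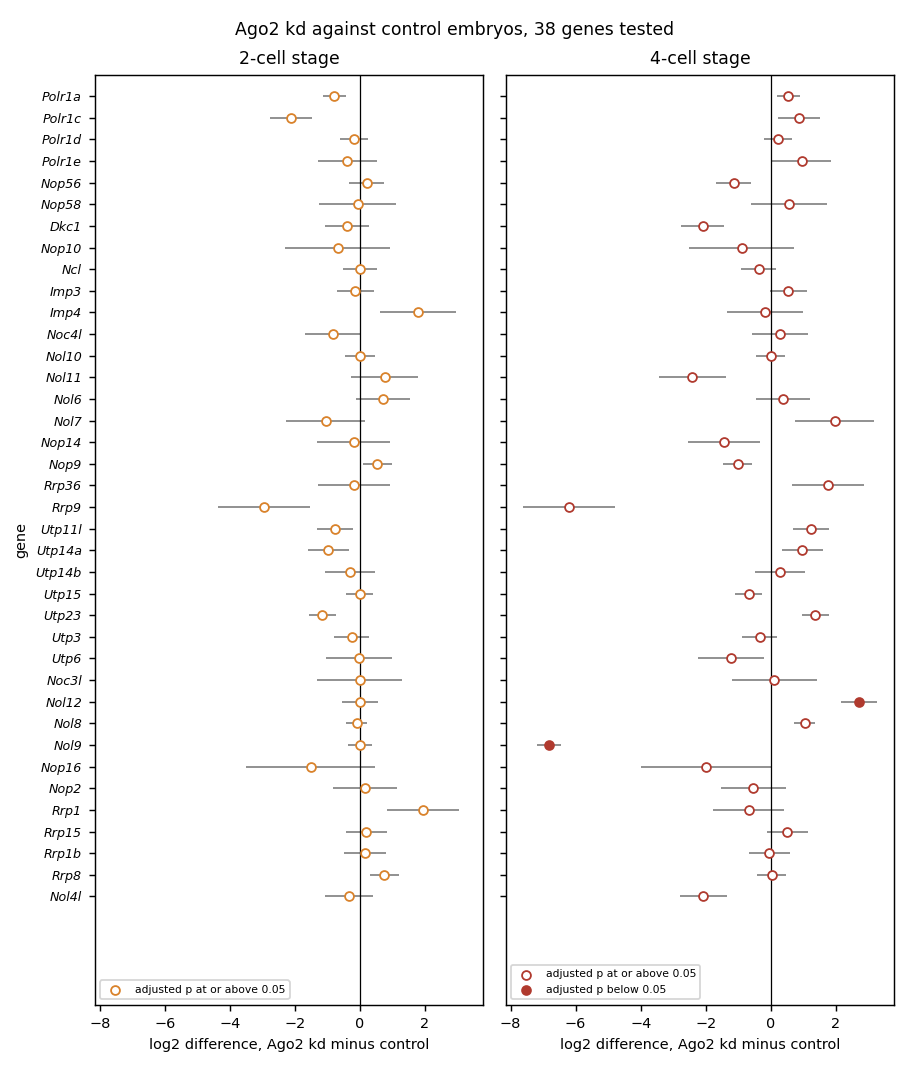
Difference between Ago2 kd and control embryos (x axis, log2(FPKM + 1) units, with standard errors as bars) for the 38 genes tested (y axis) at the 2-cell stage (left) and the 4-cell stage (right); filled points have a limma adjusted p below 0.05. At the 4-cell stage Nol12 and Nol9 are filled, and at the 2-cell stage no point is; the point of Nol9 is against libraries listed at 0 and is not a fold.

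Other measures differed between the 4-cell groups as well. The 4 rRNA rows measured, of 7 looked for, took 0.465% and 1.7% of the FPKM sum in 4-cell control and 2.05% and 3.05% in Ago2 kd libraries, mitochondrial genes 10.8% and 5.22% against 11.1% and 13%, and the oocyte markers summed to 6.14 to 11.5 FPKM against 24.6 to 41.9, with 3 of 8 listed at 0 in each group. Markers of 4-cell embryos (6 of 7 measured) summed to 345 to 378 FPKM in control and 300 to 364 in Ago2 kd libraries, with 2 listed at 0 in the latter. The part of these measures in the differences of single genes was not tested.

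The effect of Ago2 kd differed between the stages for 1 of the 38 genes (2.63%), Nol9 (limma adjusted p = 0.00204), beside 2.28% of all genes tested. Nol9 was listed at 0 in all 4 libraries of the 2-cell stage, so this difference restates its 4-cell one. At an unadjusted p below 0.05 there were 8 genes (21.1%), against 13.4% of all genes. Among them Polr1c (3.003, SE 0.914, limma adjusted p = 0.204) and Utp23 (2.52, SE 0.597, limma adjusted p = 0.102) were below controls at the 2-cell and above them at the 4-cell stage, in every library. In all, both Ago2 kd libraries lay on opposite sides of the controls at the 2 stages for 6 of the 38 genes (15.8%), against 6.14% of all genes.

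Other genes of the same pathway, from a list that the names above do not cover, gave 129 measured and 109 tested genes. From the 2-cell to the 4-cell control stage 68 rose (62.4%) and 2 fell (1.83%), beside 21.1% and 17.5% of all genes, with a median difference of 3.48 log2 units beside 0.24 over all genes and 1.58 for the 38 genes. Of the 109, 29 (26.6%) passed the filter through 4-cell libraries alone and had to be higher there, against 14.2% of all genes, and 20 of the 68 that rose are among them. By role, 5 of 13 Pol I subunits and initiation factors, 5 of 7 snoRNP factors and 20 of 30 small-subunit factors rose. So did 30 of 45 large-subunit factors and 8 of 14 exosome and trimming factors. From oocyte to 2-cell embryos 8 rose (7.34%) and 14 fell (12.8%), close to the 6.54% and 14.2% of all genes. In Ago2 kd embryos 0 of the 109 were called at the 2-cell stage in limma, beside 0.55% of all genes, and 6 (5.5%) had an unadjusted p below 0.05, beside 5.96%. At the 4-cell stage 8 were lower (7.34%) and 0 higher, beside 2.77% and 1.23% of all genes, with a median of -0.76 beside 0.00. Of all libraries, 4-cell Ago2 kd replicate 1 had the largest share of tested genes at 0 (25.9%) and their lowest median (1.197 on the log2 scale). Its part in the median of -0.76 was not tested. Of these 8, 5 (Dis3, Naf1, Pes1, Tbl3 and Twistnb) reached 1 FPKM in the 4-cell control libraries alone, as did no other of the 109, so they too had to differ and are given as a description. The largest differences among the 8 were those of Dis3, a catalytic nuclease of the RNA exosome, at 51.67 and 34.51 FPKM in 4-cell control and listed at 0 in both Ago2 kd libraries (limma adjusted p = 0.00022), and Pes1, a large-subunit factor of the PeBoW complex, at 28.73 and 24.36 against 0 and 0.1974 (limma adjusted p = 0.000326). Among the 8 was also Twistnb, a Pol I subunit under an older symbol, at 27.81 and 11.35 FPKM in 4-cell control and listed at 0 in all 8 other libraries (limma adjusted p = 0.00167). Like Nol9, these 3 genes were listed at or near 0 in oocytes and 2-cell embryos.

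**Figure D5:**
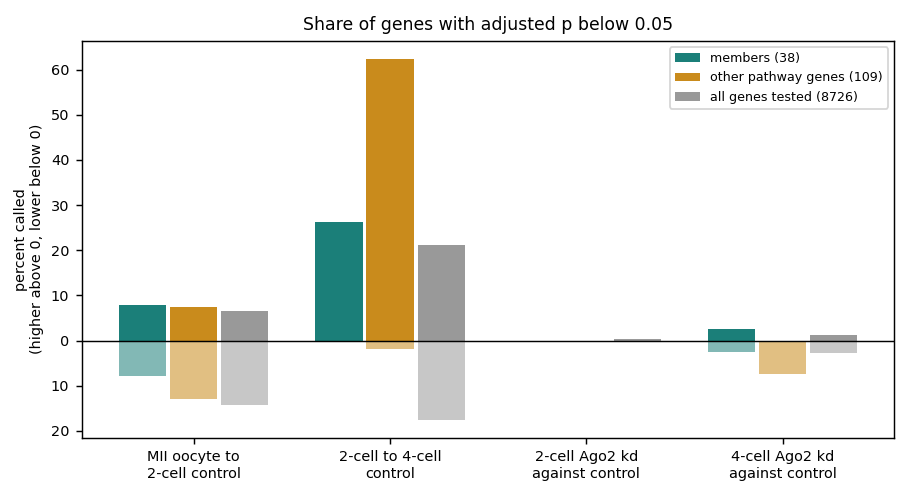
Percent of genes with a limma adjusted p below 0.05 (y axis; higher above 0, lower below 0) in 4 comparisons (x axis), for the 38 genes tested, the 109 other pathway genes and all 8726 genes tested. The bars of both pathway sets point upward from the 2-cell to the 4-cell control stage, at 26.3% and 62.4%, and stay at or below 7.34% in the Ago2 kd comparisons.

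The rows listed here as rRNA differed in the direction of their change. Rn18s-rs5 was at 4.702 and 14.72 FPKM in 4-cell control and 423.4 and 2018 in Ago2 kd embryos (6.61, SE 0.787, limma adjusted p = 0.00515), after 1723 and 1919 in 2-cell control embryos. AY036118 was at 34.11 and 189.2 FPKM against 3567 and 7517 (5.99, SE 0.766, limma adjusted p = 0.00715). Gm26917 (1163 and 3576 against 737.3 and 411.4 FPKM) and Gm42418 (48.17 and 321 against 13.44 and 16.08) were lower in every Ago2 kd library without passing (limma adjusted p of 0.174 and 0.112). Rows of repeated sequence can share reads, and how rRNA was treated in making the libraries is not given in the sources used here, so these values were not read as levels of rRNA.

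Annotation limits some of these values. Utp14a and Utp14b are near copies of each other, and Utp14b lies in Acsl3 on the same strand; Nol11 shares its strand with the pseudogene Rps12-ps26. A gene on the opposite strand overlaps 20 of the 44 genes, among them Rrp9 with Parp3, Nop9 with Cideb, Polr1e with Fbxo10, Dkc1 with Mpp1 and Rrp8 with Ilk, and reads from such pairs cannot be told apart without strand. Nop56, Nop58, Ncl and Dkc1 host 13 snoRNA genes in all within their bodies.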

How the data were processed

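The authors sequenced RNA of 10 libraries, grouped here by their labels. Per the labels and the Methods, reads were aligned to mm10 (GRCm38) with HISAT2 2.1.0 and the deposited FPKM, 1 per gene name and library, were computed by the authors with StringTie; how several transcripts became 1 row is not given in the sources used here. Deposited values are not counts, so depth and counting error are unknown and precision was judged from replicate spread.

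The members and lists were chosen with earlier results of these data known. Values were analysed as log2(FPKM + 1), so differences of low genes are understated, with limma 3.58.1 in R 4.3.3: 1 mean per group, all 10 libraries (5 residual degrees of freedom), moderated with a trend, two-sided, Benjamini-Hochberg over the 8726 genes that reached 1 FPKM in 2 or more libraries. The fit was tested on simulated data. An exact permutation test of 2 libraries against 2 cannot go below p = 0.333 and was not used. The named-gene rule gave every library's value for Pol I subunits, snoRNP proteins and nucleolin, members called in an Ago2 kd contrast, the 3 largest called rises and falls of each control step, and the 3 highest mean FPKM; other members are named as examples. Positions came from GENCODE M21, and 1 gene was matched by an older symbol. Alternatives were another pseudocount, filters, scalings, a replicate block, the compared groups alone, no trend, and each library left out.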

Additional observations from a re-analysis of the deposited data

Results flagged for a closer look

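The difference between the stages in the Ago2 kd effect on Nol9 was -6.82 on the log2(FPKM + 1) scale (limma adjusted p = 0.00204). Nol9 was listed at 0 in all 2-cell libraries and reached 1 FPKM in the 4-cell control libraries alone. The test thus repeats a 4-cell difference that the filter required, and its result is a description. Because the gene was listed at 0 in the 4-cell Ago2 kd libraries too, this size depends on the added 1 FPKM and is no fold.

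For 6 more genes both Ago2 kd libraries lay on 1 side of the controls at the 2-cell stage and on the other at the 4-cell stage, which makes 15.8% of the 38 tested, against 6.14% of all genes, and the difference between the effects did not pass in limma. It was 1.32 log2 units for Polr1a (adjusted p = 0.31), 3.003 for Polr1c (0.204), 1.99 for Utp11l (0.326), 2.52 for Utp23 (0.102) and 1.15 for Nol8 (0.335), all lower at the 2-cell and higher at the 4-cell stage. For Nol11 it was -3.18 (adjusted p = 0.422), higher at the 2-cell and lower at the 4-cell stage. Groups of 2 libraries were too small for a check of outlying samples.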

How the results depend on the processing

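The number of members called in the 4-cell Ago2 kd comparison, 2 in the report, was 1 with no filter on low values, with a filter of 5 FPKM, with TPM scaling, with the replicate block and with no trend, each time Nol9, and 0 with only the compared groups fitted. With a pseudocount of 0.1 it was 2, Nol9 and Nol4l. With only the compared groups fitted, 0 of all 8726 genes passed for Ago2 kd at the 2-cell or the 4-cell stage. The median of the members from MII oocyte to 2-cell control embryos went from 0.17 to 1.20 with TPM scaling; the FPKM sums of the oocyte libraries were the highest of all.

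With each library left out in turn, the members called ranged from 0 to 1 at the 2-cell and from 1 to 3 at the 4-cell stage for Ago2 kd, from 1 to 3 for the difference between stages, from 3 to 7 from oocyte to 2-cell embryo (lowest without MII oocyte replicate 2) and from 6 to 13 from the 2-cell to the 4-cell stage (lowest without 2-cell control replicate 1). Without 4-cell Ago2 kd replicate 2, Nol11 and Nop10 joined Nol9 as lower. Nol12 kept its call without 4-cell control replicate 1 and lost it without any other library, and in the oocyte step Dkc1 and Ncl did not pass without any 1 of the 4 libraries compared. A library left out of a pair leaves a sample assumed to vary like the other groups. Over all 38 genes, the number whose difference changed sign under at least 1 alternative was 21 and 14 for Ago2 kd at the 2-cell and 4-cell stage, 14 for the difference between stages, 12 from oocyte to 2-cell and 5 from 2-cell to 4-cell embryos. None of these had passed or had an unadjusted p below 0.05 in limma. Nop10 at the 4-cell stage was at 1.93 without Ago2 kd replicate 1 and at -3.70 without replicate 2 (limma adjusted p of 0.199 and 0.0335).

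No pairing by replicate number was seen: same-numbered libraries of different groups had deviations correlated between -0.093 and 0.092, and the labels name no shared collection. Whether same-numbered libraries were collected together cannot be told from these values. With the replicate block the members called were 0, 1 and 1 for Ago2 kd at the 2-cell stage, at the 4-cell stage and for their difference, and 5 from oocyte to 2-cell embryos. Depth being unknown, a value of 0 cannot be told from an mRNA that was not sampled.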
